A study of Mus musculus with 6 samples.

Results

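The genes of major histocompatibility complex (MHC) class I antigen presentation, together with the MHC-linked gene Ubd, were followed in mouse embryonic stem (ES) cells. Members were B2m, H2-K1, H2-D1, Tap1, Tap2, Tapbp, Psmb8, Psmb9, Nlrc5 and Ubd, and every probe set whose platform annotation gives one of these symbols, alone or among several, was taken. All 10 genes were represented, by 30 of the 35556 probe sets of the deposited table. Of these 30 probe sets, 26 carry a single symbol and 4 carry several. Nlrc5 alone accounts for 19. The 10 genes are among the 21335 named on the platform, alone or with others. They were chosen by their role and with the measured log2 values of lox/lox and wt/wt arrays already known, so their own differences are given as a description. Where calls or adjusted p-values of Ubd and B2m are given, they come from the fit over all probe sets and support nothing.

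RNA was hybridised to 6 Affymetrix Mouse Gene 1.0 ST arrays, from 3 biological replicates of each genotype. The cells with Scc1 lox/lox ERT2-Cre were set against cells with Scc1 wt/wt ERT2-Cre. Scc1 is an older name of Rad21, which encodes the ring-closing subunit of cohesin, and ERT2-Cre is a recombinase that becomes active when 4-hydroxytamoxifen (4-OHT) is added. Both lines were female ES cells derived in 2i (a pair of kinase inhibitors that keeps ES cells naive) from a mixed C57BL/129 background, both carried ERT2-Cre, and both grew on laminin in N2B27 with 2i and LIF. Both received 4-OHT for 24 h, at 80 nM according to the sample labels. Because both genotypes were treated and no untreated array was used here, the loss of Rad21 and any earlier difference between the lines cannot be told apart.

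MHC class I molecules show peptides from inside the cell to cytotoxic T cells. The proteasome cuts proteins into peptides, and the immunoproteasome subunits encoded by Psmb8 and Psmb9 replace constitutive catalytic subunits to change which peptides are made. The transporter formed by the products of Tap1 and Tap2 carries peptides into the endoplasmic reticulum, where tapasin, the product of Tapbp, helps to load them onto a heavy chain (H2-K1 or H2-D1) bound to β2-microglobulin (B2m). Nlrc5 encodes a transcriptional coactivator of class I genes, and interferon-γ raises most genes of the set in many cell types. Ubd encodes FAT10, a ubiquitin-like protein that marks substrates for the proteasome and is induced by interferon-γ and tumour necrosis factor. ES cells are known for low class I levels at their surface.

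The 250 bases before the RefSeq start of 4 of the members (build GRCm38.p6, 5′ to 3′ on the gene's strand) are shown because they let the control regions of Ubd, B2m and the heavy chain genes be compared. Of the 10 members, 8 had a window in the RefSeq table. Tap2 and Nlrc5 are named only. For H2-K1 the table holds more than 1 start, and the window of the first listed is printed. Capitals mark matches, on either strand, to an NF-κB pattern (GGG, any 2 bases, TT, any base, CC), to an interferon-stimulated response element pattern (GAAA, any 2 bases, GAAA), to TGACG and to CCAAT. The windows lie at chr17:37193642-37193891 (plus strand) for Ubd, chr2:122147437-122147686 (plus strand) for B2m, chr17:34000348-34000597 (minus strand) for H2-K1 and chr17:35262844-35263093 (plus strand) for H2-D1.
Ubd: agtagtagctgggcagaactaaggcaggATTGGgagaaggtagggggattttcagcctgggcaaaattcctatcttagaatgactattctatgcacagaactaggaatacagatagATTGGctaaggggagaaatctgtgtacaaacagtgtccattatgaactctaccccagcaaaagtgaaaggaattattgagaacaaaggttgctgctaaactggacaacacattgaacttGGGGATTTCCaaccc
B2m: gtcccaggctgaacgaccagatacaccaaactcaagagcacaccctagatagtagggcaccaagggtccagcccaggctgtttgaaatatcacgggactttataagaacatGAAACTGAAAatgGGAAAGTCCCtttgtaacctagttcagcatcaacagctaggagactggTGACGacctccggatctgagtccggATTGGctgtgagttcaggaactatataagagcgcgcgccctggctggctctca
H2-K1: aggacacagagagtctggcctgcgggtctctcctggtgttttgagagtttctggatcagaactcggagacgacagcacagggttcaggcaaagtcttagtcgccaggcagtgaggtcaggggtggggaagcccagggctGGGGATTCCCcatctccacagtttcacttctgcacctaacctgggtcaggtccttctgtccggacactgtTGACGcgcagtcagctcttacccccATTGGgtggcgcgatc
H2-D1: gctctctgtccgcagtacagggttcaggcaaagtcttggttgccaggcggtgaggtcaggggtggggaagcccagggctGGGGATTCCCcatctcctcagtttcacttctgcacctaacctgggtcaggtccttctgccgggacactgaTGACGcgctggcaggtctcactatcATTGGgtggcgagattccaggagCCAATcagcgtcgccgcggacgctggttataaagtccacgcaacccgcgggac

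The NF-κB pattern, which was chosen after the windows had been seen, was in the windows of 4 of the 8 members, the 4 printed. It was not in those of Tapbp, Psmb9, Tap1 and Psmb8. Its first base stood at position -15 from the start in Ubd, -126 in B2m (on the opposite strand), -111 in H2-K1 and -171 in H2-D1. Over 32841 RefSeq windows of 300 bases (250 before and 50 after the start), 4.80% held it. B2m also held the interferon-stimulated pattern at position -139, as did 3.44% of all windows. The B2m and heavy chain windows shared a further feature that the Ubd window lacked, a TGACG followed after 20 bases by ATTGG. This spacing recalls the X2 and Y boxes of class I promoters, the elements to which CREB/ATF and NF-Y bind. It began at position -78 in B2m, -41 in H2-K1 and -101 in H2-D1, and was found in 31 windows (0.0944%). Taken singly, TGACG was in 20.8% and CCAAT in 37.4% of windows. The pattern for interferon-γ activated sites (TTCNNNGAA, in 8.30% of windows) was found in the window of Psmb8 alone among the 8 members, at -97. The windows of Psmb9 and Tap1, which lie head to head, overlap each other and share the same TGACG. It stands at -144 in Psmb9 (on the opposite strand) and at -86 in Tap1. A match is a run of letters and not a measured binding site.

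The spaced pair was also looked up across the table, again after the windows had been seen. It occurred in the windows of 27 genes, of which 22 had a probe set of their own. Among these 22 genes the median log2 difference (lox/lox minus wt/wt) was -0.06, 0 were called higher and 1 lower, B2m, whose window had prompted the search. Over all genes with 1 probe set each, 2.75% were called, and nothing is read from this count. H2-M3, a non-classical class I gene among them, had a log2 difference of 0.04 (SE 0.08, limma adjusted p = 0.898).

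The targeted gene followed its labels. Rad21 read 6.08, 6.06 and 6.14 on the lox/lox arrays, against 10.05, 9.99 and 10.01 on the wt/wt arrays (log2 intensity), and was 15.2-fold lower (limma adjusted p = 4.12e-06). Array medians lay between 4.85 and 4.94, and correlations within a genotype were at least 0.992. Lox/lox replicate 3 and wt/wt replicate 2 stood apart from the others of their genotype on the first component of the within-genotype deviations (loadings 0.48 and 0.62, against -0.50 to -0.12 for the other arrays). Results are therefore also given without both. Deviations from a genotype's own mean cancel out, so on any component some array must lie opposite the others of its genotype. Standing apart in this sense does not by itself mark an array as faulty. Over the 30 member probe sets, lox/lox replicate 3 was the lowest lox/lox array in 16 and wt/wt replicate 2 the lowest wt/wt array in 18. The number of arrays limits the precision.

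Of the 30 member probe sets, 2 had an adjusted p under 0.05 in the fit over all probe sets, Ubd (higher) and B2m (lower). The share over all probe sets was 2.27%, of which 0.897% were higher and 1.38% lower. The count was 1, Ubd, without lox/lox replicate 1, lox/lox replicate 2 or wt/wt replicate 3, and it was 0 without both arrays that stood apart. In 7 of the 30 the arrays of the genotypes did not overlap, 4 with lox/lox above and 3 with lox/lox below. Such separation was seen in 19.8% of all probe sets, with lox/lox above in 9.34% and below in 10.5%. Since the contrast was known when the genes were proposed, nothing is read from these counts. The median log2 difference of the 30 was 0.04, beside -0.001 over all probe sets.

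**Figure D1:**
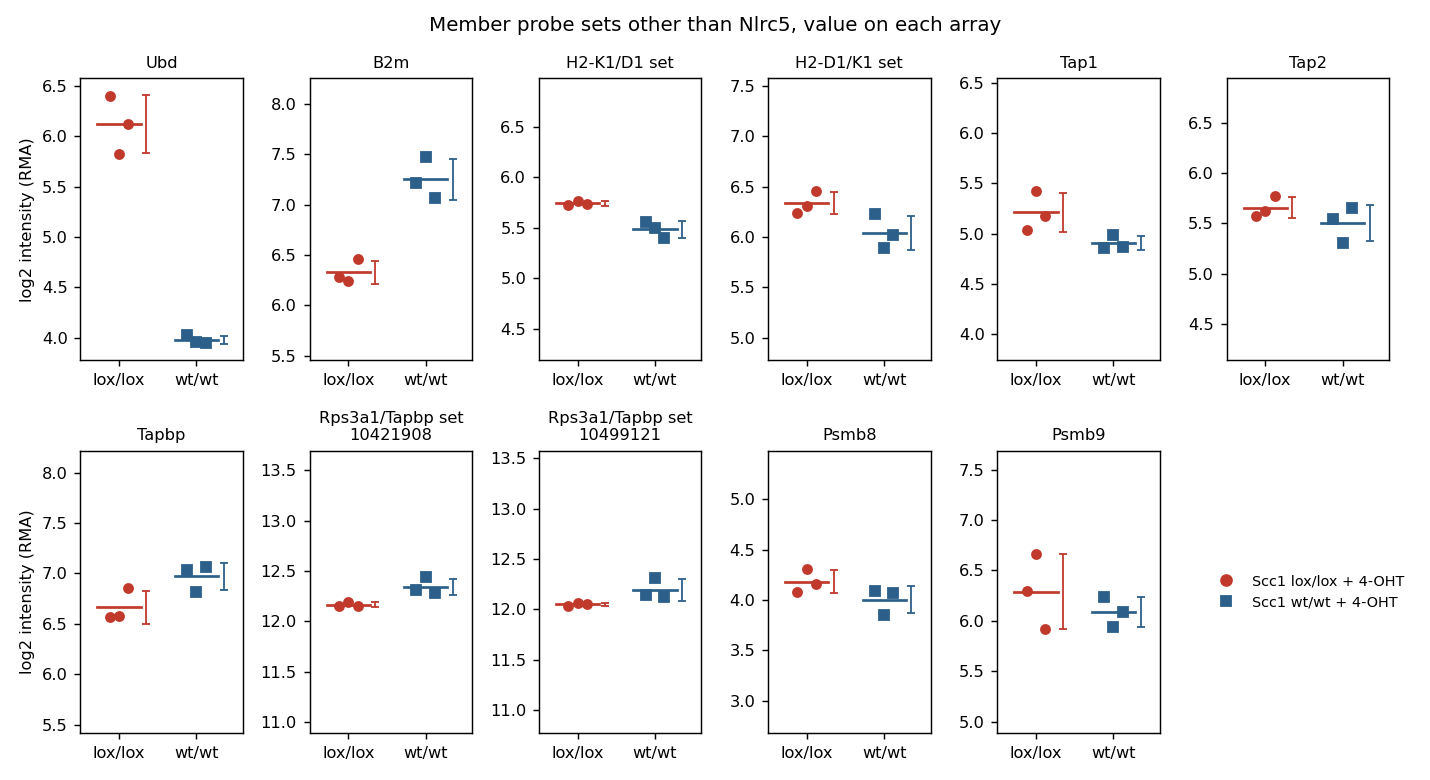
Log2 intensity (RMA) of the 11 member probe sets other than those of Nlrc5 on each array, lox/lox as red circles and wt/wt as blue squares, with the mean as a line and 1 SD as the bar (n = 3 each). All panels span the same log2 range. Ubd has its lox/lox arrays at 5.83 to 6.40 and its wt/wt arrays at 3.95 to 4.03, and B2m has them at 6.24 to 6.46 and 7.07 to 7.47.

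Ubd (probe set 10445112, chromosome 17) showed the widest separation of the set. It read 6.40, 5.83 and 6.13 on the lox/lox arrays, against 4.03, 3.96 and 3.95 on the wt/wt arrays (log2 intensity). The groups did not overlap, and the wt/wt arrays lay close together while the lox/lox arrays spread. The means were 6.12 ± 0.29 in the lox/lox cells and 3.98 ± 0.04 in the wt/wt cells (SD, n = 3 each), a log2 difference of 2.14 (SE 0.14). All 3 wt/wt values lay below the median of their array, and no measure of background was used here, so no fold is given. With 1 array left out the log2 difference ran from 2.00 to 2.28, and without both arrays that stood apart it was 2.13. In bulk RNA, more cells that express Ubd and more Ubd RNA per cell cannot be told apart.

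B2m (probe set 10475414, chromosome 2), the light chain that all classical class I molecules need, stood on the other side. It read 6.28, 6.24 and 6.46 on the lox/lox arrays, against 7.21, 7.47 and 7.07 on the wt/wt arrays. Every lox/lox array was below every wt/wt array. The means were 6.33 ± 0.12 in the lox/lox cells and 7.25 ± 0.20 in the wt/wt cells (SD, n = 3 each), a log2 difference of -0.92 (SE 0.12), or 1.90-fold lower. The log2 difference was -1.01 to -0.81 with 1 array left out and -0.88 without both arrays that stood apart.

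The heavy chain genes are alike in sequence. The platform gives both H2-K1 and H2-D1 (with LOC547349) for each of their probe sets, so the signal cannot be assigned to one of them. The probe set listed under H2-K1 first (10450075) read 5.73, 5.77 and 5.74 on the lox/lox arrays, against 5.56, 5.50 and 5.40 on the wt/wt arrays. The one listed under H2-D1 first (10444780) read 6.24, 6.31 and 6.46 on the lox/lox arrays, against 6.22, 5.89 and 6.02 on the wt/wt arrays. In both the lox/lox arrays lay above the wt/wt arrays, and in the second lox/lox replicate 1 lay just above wt/wt replicate 1. The log2 differences were 0.26 (SE 0.07) and 0.29 (SE 0.11), and without both arrays that stood apart they were 0.27 and 0.15. The heavy chain probe sets and B2m thus had log2 differences of opposite sign.

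Among the transporter genes, Tap1 (10444244) read 5.04, 5.42 and 5.18 on the lox/lox arrays, against 4.86, 4.99 and 4.87 on the wt/wt arrays. The groups did not overlap, and the log2 difference was 0.31 (SE 0.11), or 0.20 to 0.39 with 1 array left out. Tap2 (10444268) read 5.57, 5.62 and 5.77 on the lox/lox arrays, against 5.55, 5.31 and 5.66 on the wt/wt arrays. These overlapped, with a log2 difference of 0.15 (SE 0.11) that was -0.004 without both arrays that stood apart. Wt/wt replicate 2 was the lowest of the 6 arrays and lox/lox replicate 3 the highest.

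Tapbp had 1 probe set of its own (10444068), at 6.57, 6.57 and 6.86 on the lox/lox arrays, against 7.04, 6.82 and 7.06 on the wt/wt arrays. Lox/lox replicate 3 lay within the wt/wt range, so the groups overlapped, with a log2 difference of -0.31 (SE 0.11). Without both arrays that stood apart it was -0.48. The other probe sets with this symbol (10421908 and 10499121) also name Rps3a1, a ribosomal protein gene, and cannot be assigned to Tapbp. Set 10421908 averaged 12.17 ± 0.02 on the lox/lox and 12.34 ± 0.08 on the wt/wt arrays, and set 10499121 averaged 12.05 ± 0.02 on the lox/lox and 12.19 ± 0.11 on the wt/wt arrays (log2 intensity, SD, n = 3 each). The lox/lox arrays were below in both.

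The inducible proteasome subunits overlapped between the genotypes. Psmb8 (10444258) read 4.08, 4.31 and 4.16 on the lox/lox arrays, against 4.09, 3.85 and 4.06 on the wt/wt arrays, with a log2 difference of 0.18 (SE 0.10). It was 0.12 when lox/lox replicate 2 was left out and 0.10 when wt/wt replicate 2 was. Psmb9 (10450145) read 6.30, 6.66 and 5.91 on the lox/lox arrays, against 6.23, 5.94 and 6.09 on the wt/wt arrays, with a log2 difference of 0.20 (SE 0.19). The lox/lox arrays of Psmb9 spread the most of the 30 probe sets, with replicate 3 below every wt/wt array. Leaving out lox/lox replicate 2 gave a log2 difference of 0.02, leaving out lox/lox replicate 3 gave 0.39, and leaving out wt/wt replicate 2 gave 0.13.

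None of the 19 Nlrc5 probe sets separated the genotypes. Separation was seen in 19.8% of all probe sets, and nothing is read from this count. The log2 differences of the 19 ran from -0.12 to 0.25 with a median of 0.01, 10 above 0 and 9 below. The largest difference was that of probe set 10574098, at 5.18, 5.02 and 4.83 on the lox/lox arrays, against 4.88, 4.57 and 4.85 on the wt/wt arrays, which is a log2 difference of 0.25 (SE 0.12). The brightest, 10574100, averaged 8.01 ± 0.19 on the lox/lox arrays and 7.80 ± 0.15 on the wt/wt arrays (log2 intensity, SD, n = 3 each). The sign changed in at least 1 alternative setting for 10 of the 19. The probe sets of this gene span means of 3.53 to 8.01 in lox/lox cells, a range of brightness within 1 gene that cannot be compared as level. Several of them, such as 10574139 and 10574163, lay below the array median on every array, where weak signal can hide differences.

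**Figure D2:**
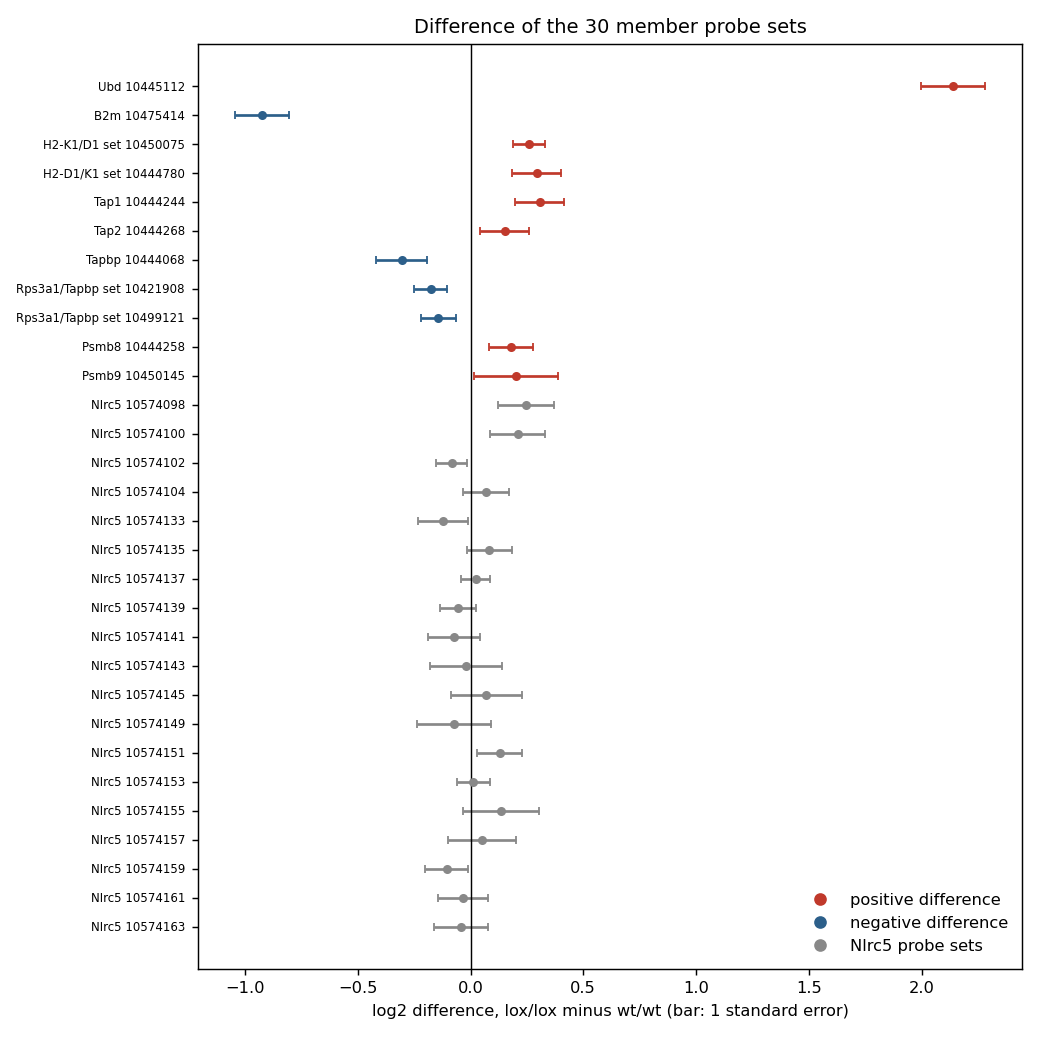
Log2 difference (lox/lox minus wt/wt) of each of the 30 member probe sets, with 1 standard error from limma as the bar. Ubd lies at 2.14 and B2m at -0.92. The 19 Nlrc5 probe sets lie between -0.12 and 0.25.

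The rest of the pathway was read from lists of related genes, 1 probe set per gene with a symbol of its own. In this set of 19938 genes 2.75% were called at an adjusted p under 0.05, 1.16% higher and 1.58% lower. Of 12 genes for peptide loading and trimming, 0 were called (1 at an unadjusted p under 0.05 in limma), and the median log2 difference was -0.01. Lap3, an aminopeptidase, read 10.50, 10.45 and 10.65 on the lox/lox arrays, against 10.88, 10.85 and 10.88 on the wt/wt arrays. Its log2 difference of -0.34 (SE 0.08) had an adjusted p of 0.0856. It was called in 5 of 16 alternatives, those without dim probe sets (0.0384), with 1 probe set per gene (0.0319), with named probe sets only (0.0323), with a trended robust eBayes (0.0241) and with array weights (0.0498). The chaperones calnexin (Canx) and calreticulin (Calr), which hold heavy chains during folding, had log2 differences of 0.16 and 0.15 (adjusted p = 0.416 for both).

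Of 6 immunoproteasome partners and proteasome activators, 0 were called (1 at an unadjusted p under 0.05), with a median log2 difference of 0.01. Psmb10, the third inducible catalytic subunit, read 6.05, 6.21 and 6.24 on the lox/lox arrays, against 5.92, 5.95 and 5.90 on the wt/wt arrays, a log2 difference of 0.24 (SE 0.08, adjusted p = 0.206). Psme1 and Psme2, the subunits of the PA28 activator, had log2 differences of 0.11 and -0.09 (adjusted p = 0.715 and 0.799). Of 14 subunits of the constitutive 20S core, 0 were called (1 at an unadjusted p under 0.05), and 13 had a difference below 0 with a median of -0.07. The exception was Psma7, with a log2 difference of 0.18 (SE 0.07, adjusted p = 0.309). Over all 19938 genes 10472 had a difference below 0, and nothing is read from the count of 13. Psma1 had -0.15 (adjusted p = 0.469). The constitutive catalytic subunits Psmb5, Psmb6 and Psmb7 had log2 differences of -0.04, -0.05 and -0.07 (adjusted p = 0.849, 0.846 and 0.802).

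Other class I and class I-like genes showed calls in both directions. Of 30 listed, 20 had a probe set of their own, and 1 was higher and 1 lower. H2-Q4, a gene of the Qa-2 region, read 5.40, 5.31 and 5.63 on the lox/lox arrays, against 4.82, 4.74 and 4.68 on the wt/wt arrays, and was higher by 0.70 in log2 units (SE 0.10, adjusted p = 0.0234). H2-M5 read 6.97, 6.90 and 6.78 on the lox/lox arrays, against 7.31, 7.51 and 7.34 on the wt/wt arrays, and was lower, with a log2 difference of -0.50 (SE 0.09, adjusted p = 0.0428). With 1 array left out the call of H2-Q4 was kept only without lox/lox replicate 3 (adjusted p = 0.0471) and reached 0.106 without wt/wt replicate 3. That of H2-M5 was lost without each of the 6 arrays, with an adjusted p of 0.0797 to 0.148. A further 6 probe sets name several genes, among them other class I genes. The one shared by H2-T3 and H2-T18 (10450735), picked out after its values were seen, read 5.39, 5.80 and 5.49 on the lox/lox arrays, against 4.82, 4.70 and 4.74 on the wt/wt arrays, and was higher by 0.80 in log2 units (SE 0.11, adjusted p = 0.0235). This call was kept only without lox/lox replicate 1 (0.0443) and reached 0.103 without wt/wt replicate 3. All 3 wt/wt values of H2-Q4 and of this shared probe set lay below the median of their array, so no fold is given. Of the 20 genes with a probe set of their own, 14 to 15 were at or below the array median on each array.

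Of 26 listed regulators of class I transcription, 24 were measured, and 1 was higher and 2 were lower. Ifngr2, the second chain of the receptor, ranged from 6.69 to 7.22 on the lox/lox arrays, against 5.92 to 6.11 on the wt/wt arrays, and was higher by 0.94 in log2 units (SE 0.14, adjusted p = 0.0255). Ifngr1, the ligand-binding chain, averaged 5.16 ± 0.12 on the lox/lox arrays and 5.75 ± 0.10 on the wt/wt arrays (log2 intensity, SD, n = 3 each), a log2 difference of -0.59 (SE 0.09, adjusted p = 0.0281). Jak1, a kinase bound to the receptor, averaged 7.10 ± 0.10 on the lox/lox arrays and 7.61 ± 0.12 on the wt/wt arrays (SD, n = 3 each), a log2 difference of -0.51 (SE 0.09, adjusted p = 0.0463). The receptor chains thus changed in opposite directions. Jak2, the other kinase of this receptor, had a log2 difference of -0.25 (SE 0.11, adjusted p = 0.368), and its arrays overlapped.

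Each of these calls moved with single arrays. Those of Ifngr2 and Ifngr1 were kept without lox/lox replicate 3 (adjusted p = 0.0294 and 0.0434) and lost without any of the other 5 arrays, with up to 0.112 for Ifngr2 and 0.121 for Ifngr1. That of Jak1 was lost without each of the 6 (0.0549 to 0.166) and with each array centred on its median (0.0727). When only 1 probe set per gene was tested, the adjusted p-values were 0.00159, 0.00327 and 0.00849 for Ifngr2, Ifngr1 and Jak1. The transcription factor Irf1, which acts on class I promoters, had a log2 difference of -0.09 (adjusted p = 0.711), with 0.09 on its other probe set. Rfx5, a subunit of the complex that binds the X box, had 0.15 (adjusted p = 0.628).

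Class II genes and partners of Ubd gave no calls in this fit. Of 9 measured class II genes, 0 were called (1 at an unadjusted p under 0.05 in limma). Between 7 and 8 of the 9 were at or below the array median on each array, where weak signal can hide differences. H2-Eb1 was above it on every array. H2-Eb1 read 8.10, 7.75 and 7.67 on the lox/lox arrays, against 7.38, 7.46 and 7.24 on the wt/wt arrays, a log2 difference of 0.48 (SE 0.13, adjusted p = 0.135). It was called with 1 probe set per gene (0.0365) and with named probe sets only (0.0455). H2-Oa, a chain of the class II modulator H2-O, had -0.17 (adjusted p = 0.375). Of 16 measured ubiquitin-like modifiers and partners of Ubd, 0 were called (3 at an unadjusted p under 0.05), with a median of 0.02. Among them Ufm1, another ubiquitin-like protein, had 0.20 (adjusted p = 0.274), and Hdac6, a deacetylase that binds FAT10, had -0.23 (adjusted p = 0.299).

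**Figure D3:**
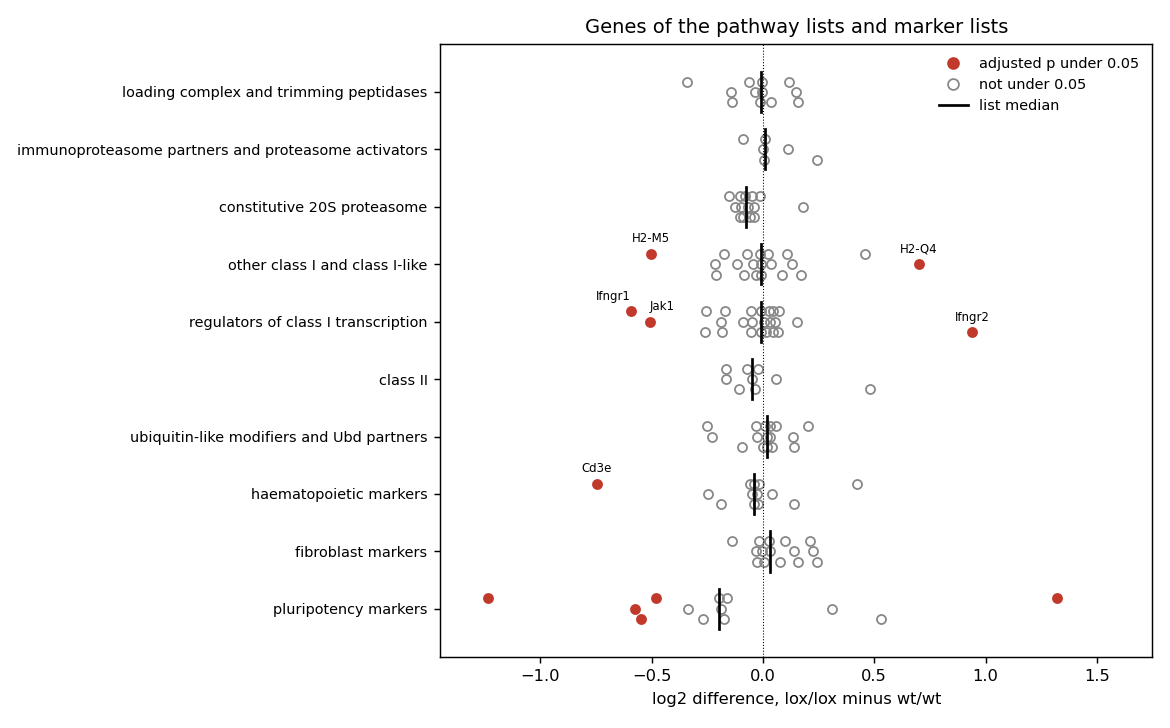
Log2 difference (lox/lox minus wt/wt) of each measured gene of the 7 pathway lists and 3 marker lists, with filled red points for an adjusted p under 0.05 in limma and a black line for the list median. In the pathway lists 2 genes (Ifngr2 and H2-Q4) are called higher and 3 (Ifngr1, Jak1 and H2-M5) lower, and the filled points of the pluripotency row are 1 higher and 4 lower genes.

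Because class I genes are also expressed in differentiated and blood cells, marker lists of these cells were read beside the members. Of 13 haematopoietic markers, 1 was called, Cd3e, which was lower with a log2 difference of -0.75 (SE 0.13, adjusted p = 0.0381, lost without each of the 6 arrays at 0.0644 to 0.148). Cd68, a lysosomal protein of macrophages, went the other way, at 6.81, 6.93 and 7.08 on the lox/lox arrays, against 6.45, 6.49 and 6.62 on the wt/wt arrays. Its log2 difference of 0.42 (SE 0.09) had an adjusted p of 0.0829, and it was called without dim probe sets (0.0385), with 1 probe set per gene (0.0224) and with named probe sets only (0.0261). The sum of the linear intensities of the 13 was 1128 to 1192 on the lox/lox arrays, against 1157 to 1219 on the wt/wt arrays. Laptm5 gave most of this sum, at 9.63 ± 0.08 on the lox/lox arrays and 9.68 ± 0.02 on the wt/wt arrays (log2 intensity, SD, n = 3 each, limma adjusted p = 0.823). Between 8 and 9 of the 13 were at or below the array median, Ptprc at 3.94 on the lox/lox arrays and 3.96 on the wt/wt arrays. Of 15 fibroblast markers, 0 were called (2 at an unadjusted p under 0.05 in limma), and their sum was 5201 to 5693 on the lox/lox arrays, against 4571 to 4938 on the wt/wt arrays. Vim gave most of this sum, at 11.80 ± 0.11 on the lox/lox arrays and 11.56 ± 0.09 on the wt/wt arrays (log2 intensity, SD, n = 3 each, adjusted p = 0.275), while 6 to 8 of the 15 were at or below the array median on each array. Dcn, which encodes the matrix proteoglycan decorin, had a log2 difference of 0.21 (adjusted p = 0.264). The part of these cell types in the members' values was not tested.

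Pluripotency markers, which check the labelled cell type, were all above the array median on every array. Of 13, 1 was called higher and 4 lower. Pou5f1 stood at 11.86 ± 0.03 on the lox/lox arrays and 12.02 ± 0.04 on the wt/wt arrays (SD, n = 3 each, adjusted p = 0.333). Nanog had a log2 difference of -0.55 (adjusted p = 0.0346) and Sox2 one of -0.48 (adjusted p = 0.0204). Among the fits with 1 array left out, the call of Nanog was kept only without wt/wt replicate 1 (0.0408, up to 0.141 otherwise), and that of Sox2 was lost in all 6 (0.0507 to 0.101). Fgf4, a growth factor that ES cells secrete, was lower, with a log2 difference of -0.57 (SE 0.08, adjusted p = 0.0215). Its call was kept only without lox/lox replicate 3 (0.0360, up to 0.101 otherwise). Klf4, a transcription factor of the naive state, was lower with a log2 difference of -1.23, and Lin28a, which encodes an RNA-binding protein, was higher with 1.32 (adjusted p = 0.00782 for both, that of Lin28a being 0.0503 without wt/wt replicate 3). What part these differences have in the members' values was not tested.

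The differences of the members were then set beside those of the nearest measured genes on the chromosome. Of the 20 genes nearest to Ubd (10 on each side), 0 were higher and 2 were lower, H2-M5 and Gabbr1, a subunit of the GABA-B receptor (log2 difference -0.57, SE 0.09, adjusted p = 0.0362). The genes on either side of Ubd, the olfactory receptors Olfr93 and Olfr94, had log2 differences of 0.05 and -0.09. Olfr93 averaged 3.62 on the lox/lox and 3.57 on the wt/wt arrays, and Olfr94 averaged 4.64 and 4.73. Both lay below the array median on every array, as did most of these 20 genes. Weak signal can hide differences there, so these values do not show whether the locus differed. Among the 20 neighbours of B2m 0 were called (3 at an unadjusted p under 0.05 in limma). The nearest, Patl2 and Trim69, had log2 differences of 0.28 (adjusted p = 0.180) and 0.05 (adjusted p = 0.857). Trim69 also lay below the array median on every array. Wdr76, which encodes a WD-repeat protein, had the largest difference among these 20, in the direction of B2m. It read 7.68, 7.62 and 7.84 on the lox/lox arrays, against 8.13, 8.32 and 8.08 on the wt/wt arrays, with a log2 difference of -0.46 (SE 0.10, adjusted p = 0.0736). It was called in 6 of 16 alternatives (0.0170 to 0.0490).

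The 4 genes Psmb9, Tap1, Psmb8 and Tap2 lie together on chromosome 17, and of the 20 genes around them 0 were called (1 at an unadjusted p under 0.05). H2-DMa and H2-Ob, on either side, had log2 differences of -0.11 and -0.02, and both lay below the array median on every array. Of the 20 genes around Tapbp 0 were called (3 at an unadjusted p under 0.05), with Zbtb22 at -0.20 and Rgl2 at 0.08. Of the 20 around Nlrc5 1 was called, Pllp, which encodes plasmolipin and was higher by 0.54 in log2 units (SE 0.10, adjusted p = 0.0445). The nearest measured neighbours of Nlrc5, 9330175E14Rik and Cpne2, had 0.28 and 0.03, the former from values below the array median on every array. Over all 97 neighbours, each counted once, the median was -0.01, 1 was called higher and 2 lower (2.75% of all genes were called), and 27 did not overlap between genotypes, beside 22.8% of all genes. With 1 array left out, the call of Gabbr1 was kept only without lox/lox replicate 3, reaching 0.139 without lox/lox replicate 2, and that of Pllp was lost without each of the 6 (0.0827 to 0.164).

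The stretch of chromosome 17 from Tapbp to Ubd holds most of the mouse MHC. It had 145 measured genes between these members, of which 2 were higher (H2-Q4 and Ddr1) and 3 lower (Apom, H2-M5 and Gabbr1), with a median log2 difference of 0.01. Over all genes with 1 probe set each, 2.75% were called, 1.16% higher and 1.58% lower, and nothing is read from this count. Ddr1, a collagen receptor, had a log2 difference of 0.65 (SE 0.07, adjusted p = 0.0116), and Apom, an apolipoprotein, had -0.69 (SE 0.10, adjusted p = 0.0208). The call of Ddr1 was lost without lox/lox replicate 1, lox/lox replicate 2 or wt/wt replicate 3 (0.0546, 0.0635 and 0.0514). That of Apom was kept only without lox/lox replicate 1 or wt/wt replicate 1 (0.0438 and 0.0422), with at least 0.0627 without any of the other 4 arrays.

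**Figure D4:**
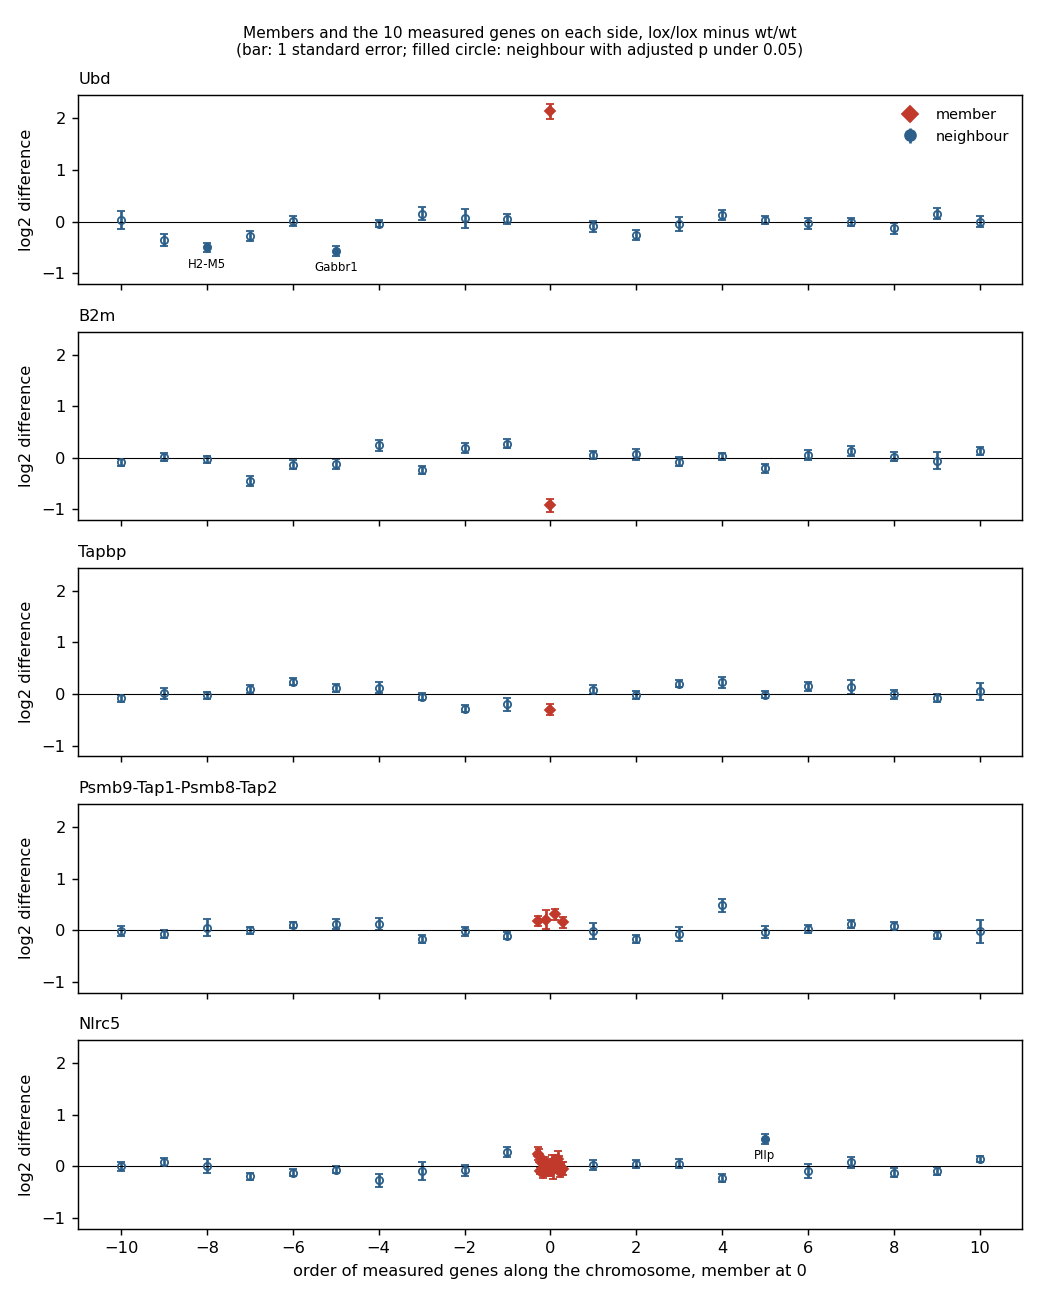
Log2 difference (lox/lox minus wt/wt, bars of 1 standard error) of Ubd, B2m, Tapbp, the Psmb9 to Tap2 cluster and Nlrc5 as red diamonds and of the 10 measured genes on each side as blue circles, in order along the chromosome, filled where the adjusted p is under 0.05. Ubd lies at 2.14 and B2m at -0.92, and the nearest neighbours of these genes lie between -0.09 and 0.28. Of these neighbours, Olfr93, Olfr94 and Trim69 were below the array median on every array, where weak signal can hide differences.

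The genes whose profiles over the 6 arrays came nearest to those of Ubd and B2m were found by the root mean square distance between differences from the wt/wt mean. Those nearest to Ubd were Usp26 (0.337), Slc7a7 (0.390), Trh (0.414), Zp3 (0.431) and Nod1 (0.445) in log2 units. Usp26, a ubiquitin-specific protease gene, read 7.69, 7.77 and 7.96 on the lox/lox arrays, against 6.26, 6.02 and 5.69 on the wt/wt arrays (log2 intensity). Nod1, an innate immune sensor gene, had a log2 difference of 2.67, and Trh, the gene of thyrotropin-releasing hormone, one of 2.63. Those nearest to B2m were closer, B3gnt5 (0.0857), Mme (0.0929), Spic (0.0959), Me1 (0.0980) and Coro2b (0.0997). Mme, which encodes the membrane peptidase neprilysin, read 7.24, 7.16 and 7.36 on the lox/lox arrays, against 8.20, 8.49 and 8.19 on the wt/wt arrays. In B2m as in Mme, wt/wt replicate 2 was the highest wt/wt array and lox/lox replicate 3 the highest lox/lox array. Mme was picked for its nearness to B2m over these same arrays, so the shared order supports nothing. The distances are over 6 arrays that share these genotypes, and a larger difference leaves room for a larger distance.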

How the data were processed

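RNA of 6 ES cell cultures, 3 Scc1 lox/lox and 3 Scc1 wt/wt, was labelled with the maker's kit, per the labels' protocols. Genotype and replicate number came from each sample's title. For 4-OHT the sample labels give nM where the design text has mM, and the unit of the labels is printed. The deposited values are log2 intensities that the authors made with RMA and affy, per the submitters' processing notes. Their versions, options and genome build are not known here. RMA removes overall shifts between arrays, and background understates fold changes of weak genes.

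Names came from the platform annotation (1 symbol for 21789, several for 1621, 12146 unnamed here), and 0 symbols needed updating from the GRCm38.p6 gene table, which also gave gene order. The whole table of 35556 probe sets was fitted for the genotype difference, lox/lox minus wt/wt, by lmFit and eBayes of limma 3.58.1 (R 4.3.3; 4 residual and 2.90 prior degrees of freedom), with Benjamini-Hochberg adjustment over all of them and a threshold of 0.05. For lists and neighbours each of 19938 genes was represented by its probe set with the highest mean. The fit was tested on simulated arrays with known changes. Promoter windows came from RefSeq, and motifs were sought on both strands.

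The members, lists, motifs and tests were chosen with earlier results of these data known. The text names the members, Rad21, Pou5f1, Nanog and Sox2, the called genes of each list (or those with the smallest p), a few fixed pathway genes, the nearest and the called neighbours, and the 5 most similar genes for Ubd and for B2m. 1 further gene of this rule is not reported here. Ddr1, Apom, H2-M3, Wdr76, Jak2, Laptm5, Ptprc and the H2-T3 probe set were named after their values were seen. Alternatives were median centring, quantile normalization, cyclic loess, a filter on dim probe sets, 1 probe set per gene, named probe sets only, a trended robust eBayes, array weights, a replicate block, leaving out each single array, and leaving out both arrays that stood apart.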

Additional observations from a re-analysis of the deposited data

How the results depend on the processing

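Ubd kept its direction in all 16 alternatives and its call in 15 of them, being lost without both lox/lox replicate 3 and wt/wt replicate 2 (adjusted p = 0.101). B2m kept its direction in all 16 and its call in 11. The 5 losses were without lox/lox replicate 1, lox/lox replicate 2 or wt/wt replicate 3 (adjusted p = 0.0671, 0.0806 and 0.0503), with the replicate block (0.0800) and without both arrays that stood apart (0.101). Of the member probe sets, 1 was called with the replicate block, 1 to 2 with 1 array left out and 0 without both arrays. Pathway genes called higher numbered 3 with 1 probe set per gene or named probe sets only, 0 with the block, 0 to 2 with 1 array left out and 0 without both. Those called lower numbered 1 after median centring, 4 without dim probe sets, with 1 probe set per gene, with named probe sets only, with a trended robust eBayes or with array weights, 0 with the block, 0 to 1 with 1 array left out and 0 without both. Neighbours called higher numbered 0 without dim probe sets, 2 with 1 probe set per gene or named probe sets only, 0 with the block, 0 with any array left out and 0 without both. Those called lower numbered 0 after median centring, 4 without dim probe sets, with 1 probe set per gene or with named probe sets only, 0 with the block, 0 to 1 with 1 array left out and 0 without both. Over all probe sets the count of 808 became 1289 without dim probe sets, 1228 with 1 probe set per gene, 1418 with named probe sets only, 122 with the block, 65 to 449 with 1 array left out and 2 without both. Several of these fits test fewer probe sets or fewer arrays. For median centring and the block, the cause was not tested.

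Same-numbered arrays of the genotypes did not deviate together (r = 0.06, -0.12 and -0.05 for replicates 1, 2 and 3). Between differently numbered arrays r ran from -0.17 (lox/lox replicate 3 with wt/wt replicate 1) to 0.20 (lox/lox replicate 3 with wt/wt replicate 2). The latter pair are the arrays that stood apart, which were named from these same deviations. With 3 arrays per genotype these values cannot show whether same-numbered cultures were handled together. Whether the block pairs cultures is therefore not known here. Probe sets below the array median, such as Psmb8, can hide differences of weak signal. The p-values rest on the spread of 3 replicates per genotype, which limma moderates with the spread of all probe sets. They do not measure the spread between independently derived lines.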
